A study of Rattus norvegicus with 6 samples.

Results

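The 10 genes described here encode the proteins that bring long-chain fatty acids into the liver cell, carry them through the cytosol and activate them. They are the membrane receptor Cd36, the fatty acid transport proteins Slc27a2 and Slc27a4, the binding proteins Fabp1, Fabp2 and Fabp4, and the acyl-CoA synthetases Acsl1, Acsl3, Acsl4 and Acsl5. They were listed by name for their function, each matched 1 row of the 32930 rows in the deposited table, and all 10 passed the filter on low counts. Liver RNA was sequenced in 3 libraries from animals fed a high-fat diet with the vehicle, 0.5% CMC-Na (HFD group). The other 3 libraries came from animals fed that diet and treated with HTG (HTG group), the Huazhuo Tiaozhi granule, a herbal formula given against dyslipidaemia. The labels give an intervention of 12 weeks. For its rats, the paper describes 12 weeks of high-fat diet, with HTG given only in the later part of them. No group on a normal diet was among these libraries, so both groups share the high-fat diet. The comparison therefore asks whether these genes differed with HTG on top of that diet. The labels name rats, the study's sequencing methods name C57BL/6 J mice, and the table's identifiers are those of mouse Ensembl genes, as which they were read. One label field spells the treatment HCG. Neither the age nor the sex of the animals is given in the labels, which speak of 6 animals without tying each library to its animal. Values listed below follow the order of libraries 1, 2 and 3 of a group.

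Fatty acids reach the hepatocyte from the plasma, and Cd36 at the cell surface together with transport proteins of the Slc27 family aids their entry. Inside, they are poorly soluble and are held by small cytosolic binding proteins, of which Fabp1 is the characteristic form of the liver. Before a fatty acid can be oxidised, stored as triglyceride or built into a membrane, it must be joined to coenzyme A, a step catalysed by the Acsl enzymes and also by several Slc27 proteins. Many of these genes are known targets of the nuclear receptor PPAR-alpha, which senses fatty acids.

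The estimated counts summed to between 50648778 and 90563477 per library. A fragment was taken to be worth about 4 of these counts. Among the low values, 4 occurred 6450 times, against 2549 times for 3 and 1757 times for 5. A value of 1 occurred 5104 times, so this unit is an inference. With it, the depth would lie between 12662194 and 22640869 fragments. Levels of different genes are compared below in FPKM, which divides by gene length and by library size, and the groups are compared in CPM, the counts of a gene relative to the library's total after TMM scaling. The mitochondrial mRNAs took 4.82% to 6.31% of the counts in the HFD libraries and 9.12% to 14.9% in the HTG libraries, and FPKM values carry this difference. All 7 hepatocyte markers examined were present, and their summed level was 46410 to 49590 FPKM in the HFD libraries and 37770 to 44290 FPKM in the HTG libraries, so hepatocyte RNA was present in every library. Albumin (Alb) alone averaged 24540 FPKM, with means of 27300 FPKM in HFD and 21770 FPKM in HTG. Apoa2, a further plasma protein gene, averaged 4852 FPKM and went the other way, with means of 3495 FPKM in HFD and 6210 FPKM in HTG. Of the 7 markers, 1 was higher and 1 was lower at an unadjusted p under 0.05 (edgeR's quasi-likelihood test). Over all genes tested, 12.3% were higher and 12.4% were lower at that threshold. The part of these differences in the results below was not tested.

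The levels of the 10 genes per length spanned 1860-fold. Fabp1 stood first at 2325 ± 1398 FPKM (SD, n = 6 libraries) and ranked 39 among all rows of the table. Slc27a2 followed at 284 ± 73.7 FPKM, and both steps, from Fabp1 to Slc27a2 and from Slc27a2 to the next gene, held in all 6 libraries. Acsl1 at 46.9 ± 33.5 FPKM and Acsl5 at 46.3 ± 26.0 FPKM were not separated, since Acsl1 was the higher in only 3 of 6 libraries. Fabp2 at 38.3 ± 14.8 FPKM lay below Acsl5 in 4 of 6 libraries, within the spread of both. Cd36 at 12.0 ± 5.48 FPKM lay below Fabp2 in all 6 libraries. Acsl3 at 6.88 ± 2.57 FPKM and Acsl4 at 6.79 ± 2.57 FPKM again could not be ordered, with Acsl3 higher in 3 of 6 libraries. Slc27a4 at 4.85 ± 1.98 FPKM lay below Acsl4 in all 6 libraries but above Acsl3 in HFD library 2 (7.21 against 3.98 FPKM). Fabp4 at 1.25 ± 0.478 FPKM closed the order, below Slc27a4 in all 6 libraries (SD, n = 6 throughout).

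**Figure D1:**
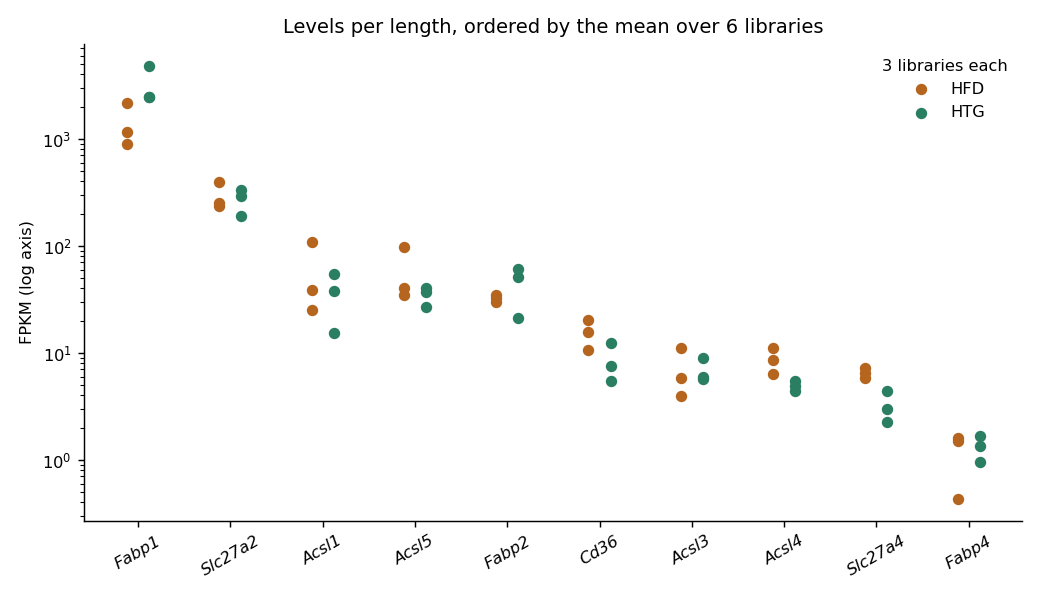
FPKM on a log axis for each gene in the 3 HFD and 3 HTG libraries, 1 point per library, ordered by the mean over 6 libraries. Fabp1 lies above every other gene in each library, and the points of Acsl1 and Acsl5 and those of Acsl3 and Acsl4 intermingle.

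The length behind an FPKM value can be read back from the ratio of count to FPKM, with the mitochondrial mRNAs, whose listed length is that of the transcript, as the standard. By this measure Fabp1 was counted over 553 bases and Fabp2 over 965 bases. Acsl1 was counted over 10500 bases, the longest of the 10 genes, and Acsl5 over 4870 bases, so the place of Acsl1, its ratio to Acsl5 and its share of the Acsl family depend on that length. Fabp4 was counted over 4500 bases, which is close to the whole listed span of the gene (4489 bases), introns included, and the table lists 2 transcripts for it, a coding one and a retained intron. The FPKM of Fabp4 is therefore lower than it would be over a spliced length, and its place at the foot of the order is uncertain. Its comparison between libraries does not depend on the length.

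No member had an adjusted p under 0.05 in the comparison of HTG with HFD (edgeR's quasi-likelihood test, adjusted by Benjamini-Hochberg over 18455 genes), as was true of nearly all genes, of which 0.0108% passed. That share depended on the filter and the count unit. With counts divided by 4, 5.52% of the genes tested passed and again 0 members did. At an unadjusted p under 0.05, 1 member, Fabp1, was higher in HTG and 3 members, Slc27a4, Acsl4 and Cd36, were lower. Over all genes tested the corresponding shares were 12.3% higher and 12.4% lower. No member was higher and 1, Slc27a4, was lower when the adjusted p had to be under 0.1, where 5.41% of all genes were higher and 5.43% were lower. The libraries of the groups did not overlap for Fabp1, which was higher, and for Slc27a4 and Acsl4, which were lower, against 16.5% of all genes higher and 15.5% lower. With 10 members these counts stand on single genes, so they describe the genes named and not the group of 10. The median log2 fold change was -0.38 over the members and 0.03 over all genes tested, and 6 of 10 members had a fitted value below 0, against 48.4% of all genes. Of the 62 other genes tested under the table's KEGG entry for PPAR signalling, which holds all 10 members, 8 had an adjusted p under 0.1. Apoc3 and Apoa1 were the 2 higher, and the 6 lower were Rxra, Pdpk1, Fads2, Cpt1a, Slc27a5 and Me1. Rxra and Slc27a5 also belong to the lists described further below, so they are not separate observations there. These 62 genes had a median log2 fold change of -0.44. DESeq2 put 3 members, Fabp1, Slc27a4 and Acsl4, under an adjusted p of 0.05, where it called 7.03% of the 29720 genes given a p-value. These include genes of low counts that the filter for edgeR left out, so that share is not one over the same genes.

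**Figure D2:**
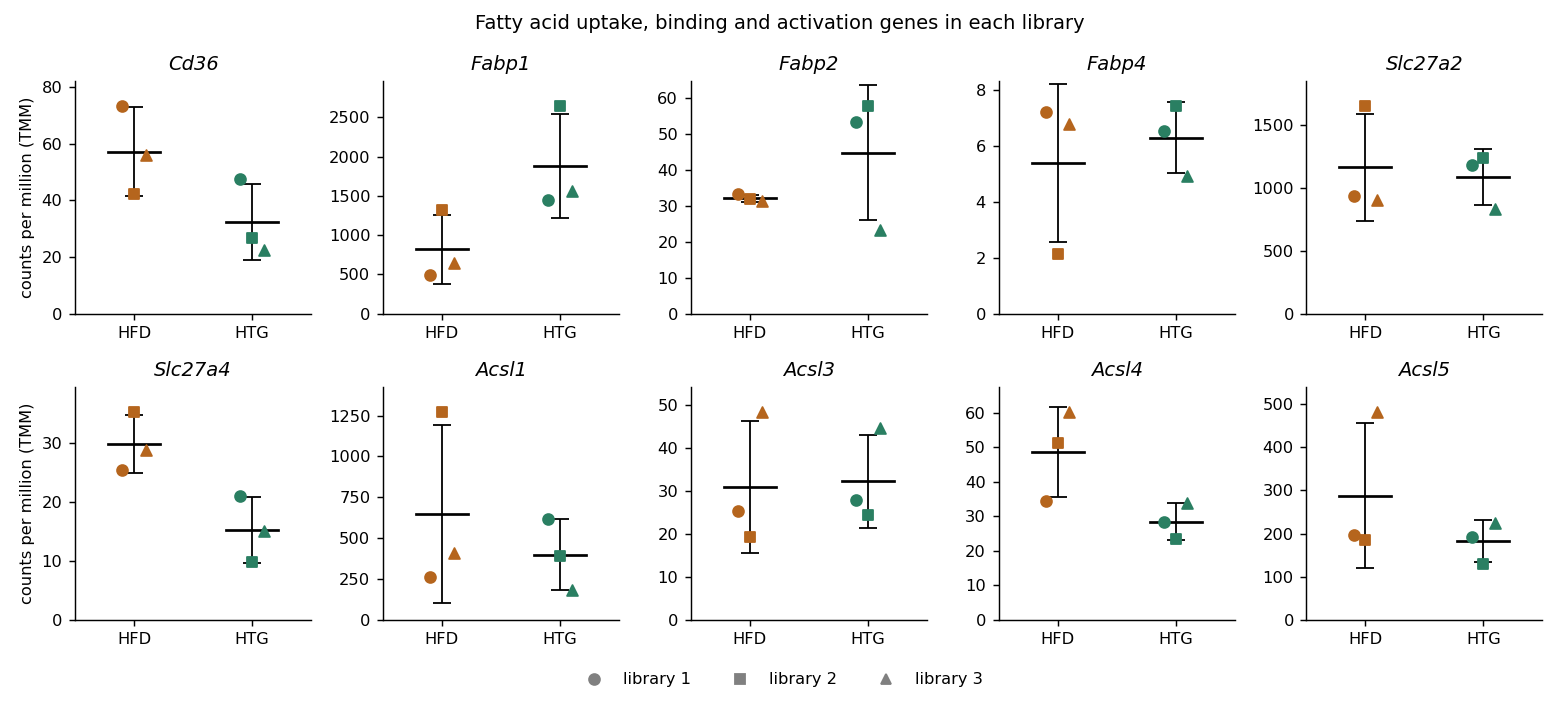
TMM-scaled CPM of each gene in every library, with horizontal bars for the group means and error bars for the SD (n = 3 per group), and each vertical axis starting at 0. The HTG points of Fabp1 all lie above its HFD points, those of Slc27a4 and Acsl4 all lie below, and in the other 7 genes the groups overlap.

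Cd36 (ENSMUSG00000002944, chromosome 5, 17986688 to 18093745, minus strand, as the table lists it without a named build) encodes a membrane glycoprotein that binds long-chain fatty acids and oxidised lipoproteins. It had 73.4, 42.2 and 56.2 CPM under HFD and 47.7, 26.8 and 22.5 CPM under HTG. Only HTG library 1 reached into the HFD range, lying above HFD library 2. The group means were 57.3 ± 15.6 and 32.3 ± 13.5 CPM (SD, n = 3 per group), the log2 difference being -0.83 with a 95% interval from -1.55 to -0.10 and an adjusted p of 0.157 (edgeR's quasi-likelihood test). The unadjusted p was above 0.05 without HFD library 1 (0.118), HFD library 3 (0.0563), HTG library 2 (0.0982) or HTG library 3 (0.112, each from edgeR's quasi-likelihood test). Cd36 is made by hepatocytes and also by macrophages and endothelium, and in bulk liver fewer cells of a type and less RNA per cell cannot be told apart. Of the 7 macrophage markers, 0 were higher and 2, Adgre1 and Cd5l, were lower at an unadjusted p under 0.05. Over all genes tested, 12.3% were higher and 12.4% lower at that threshold. The summed level of the macrophage list was 252 to 538 FPKM in HFD and 173 to 336 FPKM in HTG. Adgre1, picked out after its values were seen, averaged 22.1 ± 5.42 CPM under HFD and 7.64 ± 2.09 CPM under HTG (SD, n = 3 each; adjusted p = 0.0538, edgeR's quasi-likelihood test). Cd5l and Clec4f, the most abundant macrophage markers, had log2 fold changes of -0.86 and -0.08. Of the 6 endothelial markers, 1 (Stab1) had an unadjusted p under 0.05 in edgeR's test and was higher, with summed levels of 8.97 to 19.4 FPKM in HFD and 13.0 to 22.6 FPKM in HTG. The part of these cells in the Cd36 difference was not tested.

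Slc27a2 (ENSMUSG00000027359, chromosome 2, 126394327 to 126430163, plus strand) encodes FATP2, a transport protein of liver and kidney that also activates very long-chain fatty acids. It had 936, 1651 and 901 CPM under HFD and 1182, 1240 and 828 CPM under HTG. HFD library 2 was the highest and HTG library 3 the lowest, and of the other 4, HTG libraries 1 and 2 lay above HFD libraries 1 and 3. The log2 fold change was -0.10, with a 95% interval from -0.80 to 0.60, so a change within those bounds could not be told from none. Its sign turned to 0.24 without HFD library 2 and to 0.07 without HTG library 3.

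Slc27a4 (ENSMUSG00000059316, chromosome 2, 29692646 to 29707534, plus strand) encodes FATP4, a related transport protein with acyl-CoA synthetase activity that is best known from the intestine and the skin. It had 25.4, 35.2 and 28.8 CPM under HFD and 21.0, 9.81 and 15.0 CPM under HTG. Every HTG library lay below every HFD library, the nearest being HTG library 1 and HFD library 1, which differed 1.21-fold. The means were 29.8 ± 4.98 and 15.3 ± 5.59 CPM (SD, n = 3 per group), 1.96-fold lower in HTG, with a log2 fold change of -0.97 (standard error 0.28, 95% interval from -1.60 to -0.33, adjusted p = 0.0886, edgeR's quasi-likelihood test). The difference had an unadjusted p under 0.05 in each of the 6 fits that left out 1 library (0.00112 to 0.0256), with a log2 fold change from -1.31 without HTG library 1 to -0.73 without HTG library 2. Its adjusted p was 0.0466 without HTG library 1 and between 0.125 and 0.23 in the other 5 of these fits.

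Within the wider Slc27 family, Slc27a2 and the non-member Slc27a5, a bile acid and very long-chain acyl-CoA synthetase of the liver, made up nearly all of the summed FPKM. Slc27a5 had 681, 717 and 779 CPM under HFD and 457, 300 and 393 CPM under HTG, so the groups were apart by 1.49-fold at their nearest. It was 1.89-fold lower in HTG, with a log2 fold change of -0.92 (standard error 0.22) and an adjusted p of 0.0657 (edgeR's quasi-likelihood test). Beside it, Slc27a2 took 46.3%, 58.9% and 42.2% of the family's FPKM under HFD and 61.6%, 72.0% and 56.8% under HTG. By FPKM, Slc27a2 was thus the more abundant of the pair in all 3 HTG libraries and in 1 HFD library. This order depends on the lengths behind FPKM. In CPM, which is not divided by length, Slc27a2 lay above Slc27a5 in every library. HFD library 2 overlapped the HTG libraries in this share, lying above HTG library 3. Slc27a4 made up between 0.669% and 2.65% of the FPKM it shared with Slc27a2.

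Fabp1 (ENSMUSG00000054422, chromosome 6, 71176811 to 71182007, plus strand) encodes the liver fatty acid binding protein, which carries fatty acids and their acyl-CoA esters in the hepatocyte cytosol. It had 491, 1320 and 650 CPM under HFD and 1449, 2647 and 1558 CPM under HTG. All HTG libraries lay above all HFD libraries, but HFD library 2 came within 1.10-fold of HTG library 1. The means were 820 ± 440 and 1885 ± 662 CPM (SD, n = 3 per group), 2.30-fold higher in HTG, with a log2 fold change of 1.20 (standard error 0.41, 95% interval from 0.26 to 2.15, adjusted p = 0.125, edgeR's quasi-likelihood test). Leaving out 1 library at a time gave log2 fold changes from 0.88 without HTG library 2 to 1.72 without HFD library 2. The unadjusted p was above 0.05 without HFD library 1 (0.0691), HFD library 3 (0.0655) or HTG library 2 (0.0675, each from edgeR's quasi-likelihood test).

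Fabp2 (ENSMUSG00000023057, chromosome 3, 122688721 to 122693155, plus strand) encodes the intestinal fatty acid binding protein, the typical form of the enterocyte. Its HFD libraries were nearly equal, at 33.3, 31.9 and 31.4 CPM, the narrowest group of any member. The HTG libraries were spread on both sides of them, with 53.3 and 57.8 CPM in libraries 1 and 2 and 23.3 CPM in library 3. The log2 fold change was 0.48, with a 95% interval from -0.23 to 1.19. Without HTG library 3 it was 0.79, with an unadjusted p of 0.00294 and an adjusted p of 0.183 (edgeR's quasi-likelihood test). This was the only 1 of 16 alternatives with an unadjusted p under 0.05, and none had a lower adjusted p. The enterocyte markers Sis and Cdx1 were at 0 counts in all 6 libraries and Vil1 had at most 16 counts in any library. The enterocyte list as a whole had 206 to 304 FPKM in HTG and 435 to 578 FPKM in HFD, nearly all of it from Apoa4, an apolipoprotein gene that rodent liver also expresses. A further gene, 4933405D12Rik, is listed across Fabp2 on the other strand, but it held only 116 counts over all libraries against 17547 for Fabp2.

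Fabp4 (ENSMUSG00000062515, chromosome 3, 10269148 to 10273636, minus strand) encodes the adipocyte fatty acid binding protein, which macrophages and capillary endothelium also make. Its counts were 492, 142 and 489 under HFD and 509, 727 and 231 under HTG, or 7.22, 2.13 and 6.81 CPM against 6.53, 7.44 and 4.93 CPM. HFD library 2 stood low and the other 5 libraries lay between 4.93 and 7.44 CPM. The log2 fold change was 0.23 with a 95% interval from -0.76 to 1.21, and -0.16 without HFD library 2. Of the adipocyte markers, Adipoq was at 0 counts in all 6 libraries. Plin1 was at 0 in the HFD libraries and at 12, 7 and 4 counts in the HTG libraries. A gene read at 0 could still lie at up to 12 counts, or 3 fragments, by counting error alone. That limit applies to a gene read at 0, so it does not make Plin1 absent from the HTG libraries. Cfd had 28 counts in HTG library 1 and 0 in the others. Only Adrb3, a receptor gene, was well above that limit, at 2.17, 1.60 and 1.98 FPKM in the HFD libraries and 5.01, 12.4 and 10.4 FPKM in the HTG libraries, and it set the summed level of the list.

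Fabp1 made up 96.1% to 99.1% of the FPKM of the 3 binding proteins in every library. Among the other members of the Fabp family, 2 were tested. Fabp5, the epidermal form, had 12.2, 4.06 and 53.7 CPM under HFD and 22.8, 31.8 and 306 CPM under HTG. Its mean in HTG was thus set by library 3, and its log2 fold change of 2.37 had a standard error of 1.16 and an adjusted p of 0.251 (edgeR's quasi-likelihood test). Fabp7, the brain form, had a log2 fold change of -0.38. Fabp3 and Fabp12 did not pass the filter on low counts.

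Acsl1 (ENSMUSG00000018796, chromosome 8, 46924074 to 46989088, plus strand) is the principal long-chain acyl-CoA synthetase of liver, fat and muscle. It had 260, 1271 and 411 CPM under HFD and 617, 393 and 184 CPM under HTG. HFD library 2 was the highest and HTG library 3 the lowest, and the range within the HFD group, 4.88-fold, was wider than that of any other member in either group. The log2 fold change was -0.70 with a 95% interval from -2.12 to 0.71 (adjusted p = 0.515, edgeR's quasi-likelihood test), and without HFD library 2 it was 0.24. Its biological coefficient of variation was 52.4%, above that of 80.3% of the genes tested, whose median was 29.8%.

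Acsl5 (ENSMUSG00000024981, chromosome 19, 55240370 to 55284110, plus strand), an acyl-CoA synthetase of liver and intestine, had 198, 185 and 482 CPM under HFD and 193, 130 and 225 CPM under HTG. Here HFD library 3 stood high, and the other 5 libraries lay between 130 and 225 CPM. The log2 fold change was -0.66 with a 95% interval from -1.56 to 0.25, and -0.07 without HFD library 3. The span of Acsl5 overlaps that of Zdhhc6 on the other strand by 24388 bases. Zdhhc6 held 28.4% as many counts as Acsl5 and had a log2 fold change of -0.43. Since the use of strand in the counting is not given in the sources used here, reads of the pair may not have been told apart.

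The balance of Acsl1 and Acsl5 varied widely within both groups. The ratio of Acsl1 to Acsl5 FPKM was 0.611, 3.18 and 0.396 under HFD and 1.48, 1.40 and 0.379 under HTG. Acsl1 made up 70.0% of the FPKM of the 4 synthetases in HFD library 2 and 21.8% in HTG library 3. Acsl5 made up 61.7% in HFD library 3 and 52.3% in HFD library 1. The summed FPKM of the family was 77.9, 157 and 159 under HFD and 103, 75.0 and 69.9 under HTG. HFD library 1 fell inside the range of the HTG group, and the other HFD libraries were above it.

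**Figure D3:**
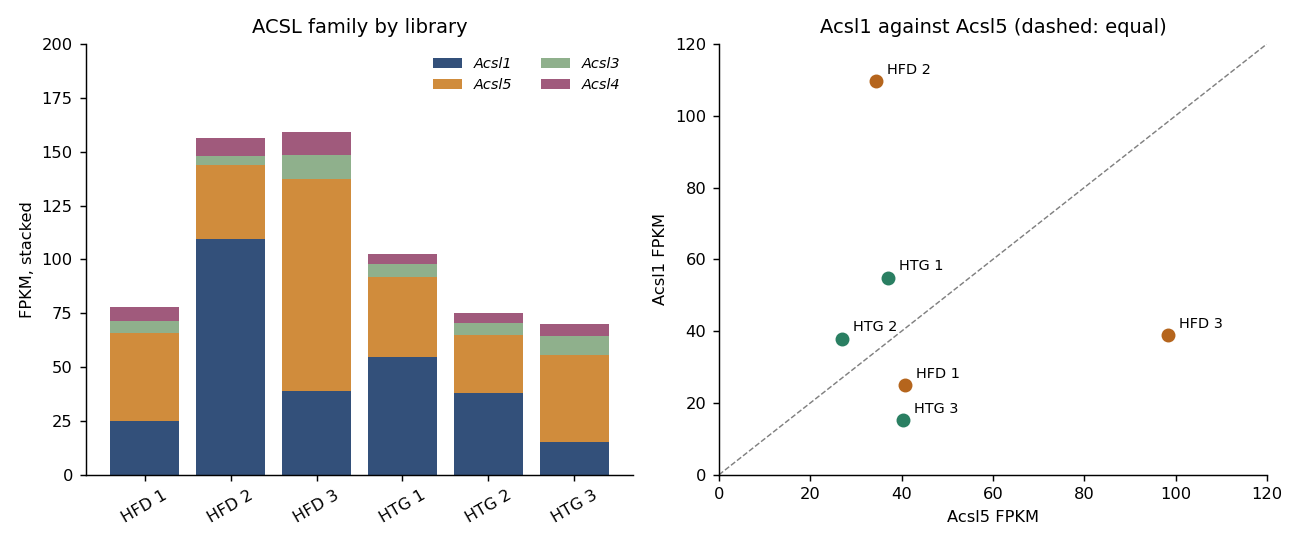
Left, the FPKM of the 4 Acsl genes stacked for each library, and right, Acsl1 against Acsl5 FPKM with 1 point per library and a dashed line of equality. HFD library 2 is high through Acsl1 (110 FPKM) and HFD library 3 through Acsl5 (98.3 FPKM), while HFD library 1 lies near the HTG libraries.

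Acsl4 (ENSMUSG00000031278, chromosome X, 141100989 to 141173531, minus strand) encodes a synthetase that prefers arachidonic acid and other polyunsaturated fatty acids. It had 34.4, 51.2 and 60.3 CPM under HFD and 28.2, 23.3 and 34.0 CPM under HTG. The HTG libraries all lay below the HFD libraries, but HTG library 3 and HFD library 1 differed only 1.01-fold. The means were 48.6 ± 13.1 and 28.5 ± 5.32 CPM (SD, n = 3 per group), 1.71-fold lower in HTG, with a log2 fold change of -0.77 (standard error 0.24, 95% interval from -1.33 to -0.22, adjusted p = 0.105, edgeR's quasi-likelihood test). The unadjusted p was between 0.00322 and 0.0474 in the 6 fits that left out 1 library. Acsl4 had the lowest coefficient of variation of the 10 genes, 23.8%.

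Acsl3 (ENSMUSG00000032883, chromosome 1, 78635542 to 78685460, plus strand) encodes a synthetase of the endoplasmic reticulum and the surface of forming lipid droplets. It had 25.3, 19.2 and 48.3 CPM under HFD and 27.8, 24.4 and 44.5 CPM under HTG. Library 3 of each group stood high, and the HTG libraries lay within the range of the HFD libraries. The log2 fold change was 0.06 with a 95% interval from -0.77 to 0.89. The gene Utp14b is listed inside the span of Acsl3 on the same strand and held 20.2% as many counts, so reads could have been shared between them.

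**Figure D4:**
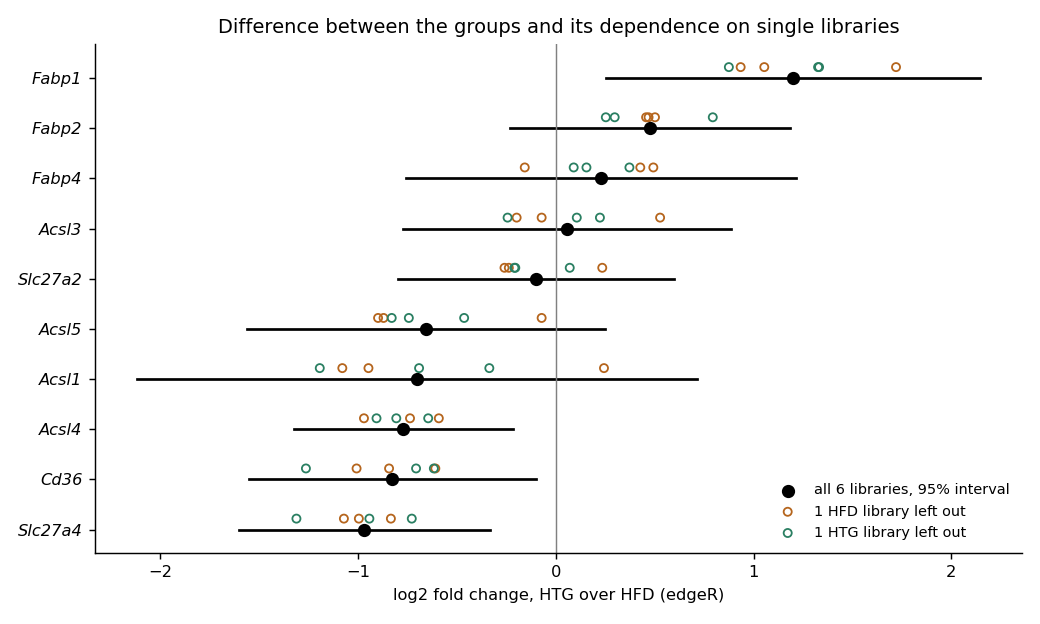
Log2 fold change of each gene, HTG over HFD, from edgeR with its 95% interval (black), and the value with 1 library left out (open circles, coloured by the group of that library). The intervals of Fabp1, Acsl4, Cd36 and Slc27a4 do not cross 0, and the open circles of Acsl1, Acsl3, Fabp4 and Slc27a2 fall on both sides of it.

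No library was extreme for all members. HFD library 2 had the highest CPM of the 6 libraries for 3 members (Slc27a2, Slc27a4 and Acsl1) and the lowest for 2 (Fabp4 and Acsl3). HTG library 3, the shallowest, was the lowest for 4 members (Cd36, Fabp2, Slc27a2 and Acsl1), and HTG library 2 was the highest for 3 and the lowest for 3. Pairs of libraries had r from 0.95 to 0.98 in log2 values across the genes tested, and genes are not independent replicates.

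Other genes of fatty acid handling were taken from 7 lists of 45 genes, of which 37 were tested. At an adjusted p under 0.05 none passed in edgeR's test. At an adjusted p under 0.1 none was higher and 3 were lower, Slc27a5, Zdhhc5 and Rxra, and at an unadjusted p under 0.05, 3 were higher, which were Slc27a3, Dbi and Zdhhc4, and 8 were lower. The share lower by the fitted value was 73.0%, and the median log2 fold change was -0.27. Zdhhc5, an acyltransferase that attaches palmitate to Cd36, had 48.2, 54.0 and 61.0 CPM under HFD and 37.2, 28.6 and 32.8 CPM under HTG, a log2 fold change of -0.73 (standard error 0.18, adjusted p = 0.0655). Its HTG libraries all lay below its HFD libraries, as those of Cd36 did not. Zdhhc4, of the same list, went the other way. It had a log2 fold change of 0.38 (standard error 0.15, adjusted p = 0.161), with every HTG library above every HFD library. Got2, the mitochondrial aspartate aminotransferase also described at the plasma membrane as a fatty acid binding protein, had a log2 fold change of -0.56 (adjusted p = 0.195), and Lypla1, an acyl-protein thioesterase, one of -0.36 (all from edgeR's quasi-likelihood test).

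Rxra, the partner with which the PPAR receptors bind DNA, had 381, 430 and 380 CPM under HFD and 275, 211 and 232 CPM under HTG. All HTG values were below all HFD values, with a log2 fold change of -0.73 (standard error 0.20, adjusted p = 0.0785). Of the 9 regulators tested, 0 were higher and 3 were lower at an unadjusted p under 0.05. The shares over all genes tested were 12.3% higher and 12.4% lower. Beside Rxra, the lower regulators were Ppara and Pparg, named after their values were seen. They had log2 fold changes of -0.80 and -1.04 and adjusted p of 0.178 and 0.126 (edgeR's quasi-likelihood test). Hnf4a and Cebpa, hepatocyte transcription factors and the most abundant genes of the list, had log2 fold changes of -0.71 and -0.03, and Hnf4a, like Acsl1, was highest in HFD library 2, at 1082 CPM against 319 to 499 CPM in the other 5 libraries.

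Downstream of activation, acyl-CoA esters are bound by Dbi, the acyl-CoA binding protein, and by Scp2. Dbi had 230, 236 and 279 CPM under HFD and 319, 354 and 539 CPM under HTG. Its HTG libraries all lay above its HFD libraries, as those of Fabp1 did, with a log2 fold change of 0.70 (standard error 0.25, adjusted p = 0.131). Scp2, at 591 FPKM the most abundant gene of that list, had a log2 fold change of -0.06. Among the synthetases of medium and short chains, 9 were tested, and Acsm3 alone had an unadjusted p under 0.05, with a log2 fold change of -0.57. Of all genes tested, 24.7% had such a p in either direction. The most abundant of these synthetases had log2 fold changes of 0.0047 for Acsm1 and -0.37 for Acsf2. The remaining long-chain synthetases Acsl6 and Acsbg1 averaged 0.035 and 0.13 FPKM, and Slc27a1 had a log2 fold change of -0.40 (all from edgeR's quasi-likelihood test).

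**Figure D5:**
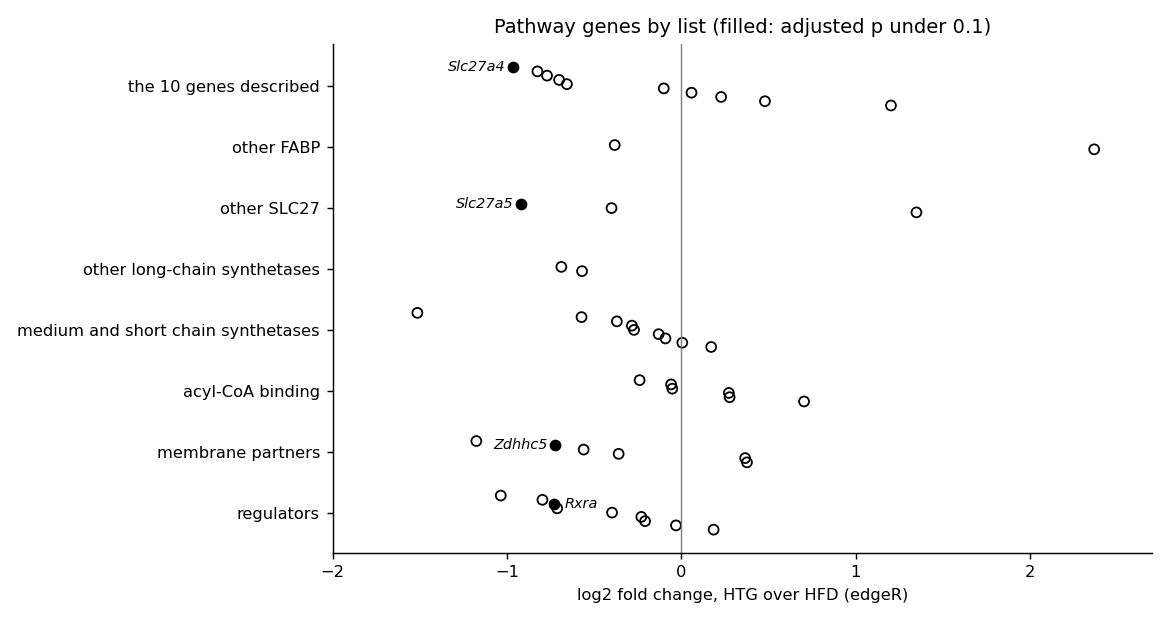
Log2 fold change, HTG over HFD, of the 10 genes and of the tested genes of the 7 other lists, 1 point per gene, filled where the adjusted p was under 0.1 in edgeR's test. The 4 filled points, Slc27a4, Slc27a5, Zdhhc5 and Rxra, all lie below 0. Over all genes tested, 5.41% were higher and 5.43% were lower at that threshold.

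Of the leukocyte markers 0 of 4 had an unadjusted p under 0.05, and of the red cell markers 1 of 5, Alas2, was lower, at summed levels of 12.4 to 18.6 and 230 to 511 FPKM in HFD and 7.18 to 21.5 and 272 to 613 FPKM in HTG. Of all genes tested, 24.7% had such a p in either direction. In each group the hemoglobin genes led the red cell list. The part of blood cells in the levels above was not tested.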

How the data were processed

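Liver RNA of HFD and HTG animals was sequenced in pairs of reads from poly(A)-selected, dUTP-marked libraries, 3 per group. For every gene the deposited table holds estimated counts, given as whole numbers and unscaled, and FPKM values, which the authors divided by length and library size. The submitters' processing notes name HISAT2, StringTie and SAMtools and the rat build mRatBN7.2, although the gene rows are mouse Ensembl genes. Coordinates are those of the table, whose build is not given in the sources used here, and the same holds for strand use in counting. The rat reference tables were not used.

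Members, gene lists and thresholds were chosen with earlier results of these data known. Counts were compared with edgeR 4.0.16 (R 4.3.3; filterByExpr, TMM, glmQLFit, glmQLFTest, group as the only term, two-sided), adjusted over 18455 genes by Benjamini-Hochberg. Intervals and standard errors come from that fit. An exact permutation test of 3 against 3 cannot go below 0.1. Since no label ties a library to its animal, p-values measure only the spread between these libraries, which may be technical. Named genes were all members, the 2 most abundant of each list and pathway genes with an adjusted p under 0.1, beside those said to be picked later. Alternatives were DESeq2 1.42.0, limma 3.58.1 on log2(FPKM + 0.1) and log2(FPKM + 1) with a mean FPKM of at least 1 or without that filter, other filters and scalings, counts divided by 4, a replicate block and each library left out. The count test was checked on simulated data, with planted changes larger than the one fitted for any member, so changes of the members' size were not examined.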

Additional observations from a re-analysis of the deposited data

How the results depend on the processing

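The direction of Cd36, Fabp1, Fabp2, Slc27a4, Acsl4 and Acsl5 was the same in all 16 alternatives, as was that of Slc27a5, Zdhhc5 and Rxra, whose alternatives were chosen after seeing the data. Reversals came only from leaving out 1 library: Slc27a2 (0.24), Acsl1 (0.24), Fabp4 (-0.16) and Acsl3 (-0.20) without HFD library 2, Acsl3 (-0.07) without HFD library 1, and Slc27a2 (0.07) and Acsl3 (-0.24) without HTG library 3. With 1 library left out these ranged from -0.26 to 0.24 (Slc27a2), -1.19 to 0.24 (Acsl1), -0.16 to 0.49 (Fabp4) and -0.24 to 0.53 (Acsl3) in log2 fold change.

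Members with an adjusted p under 0.05 numbered 0 in edgeR's test of all libraries, 3 in DESeq2, 1 in limma on FPKM with a filter at either pseudocount, and 0 to 1 with 1 library left out. Over all genes the counts in the same order were 2, 2089, and 878 or 884, and 0 to 653 with 1 library left out. Members also numbered 0 without a filter, with at least 10 counts in every library and with counts divided by 4. In these 3 fits 162 of 29763, 684 of 15454 and 822 of 14884 genes passed. At an adjusted p under 0.1, members lower in HTG numbered 1, and 3 in DESeq2, 2 with at least 10 counts in every library, with DESeq2's size factors, with counts divided by 4 and in both filtered limma fits, and 0 in limma without the filter. Members higher numbered 0, and 1 in DESeq2 and in both filtered limma fits. With 1 library left out, 0 to 2 were lower and 0 higher. Over all genes the number lower at that threshold was 1002 of 18455 in edgeR's test, 1692 of 29720 in DESeq2, 1233 of 15454 with at least 10 counts, 1116 of 18455 with DESeq2's size factors, 1229 of 14884 with counts divided by 4, 1464 of 10930 in both filtered limma fits, 323 of 29341 in limma without the filter, and 0 to 1576 with 1 library left out. The number higher was 999 in edgeR's test, 1421 in DESeq2, and 935 or 947 in the filtered limma fits. At an unadjusted p under 0.05, members higher numbered 1, 0 in limma without the filter, and 0 to 2 with 1 library left out. Members lower numbered 3 with all libraries under every alternative, and 2 to 3 with 1 library left out, being 2 in 4 of these 6 fits. Of all genes, 24.7% had such a p in either direction in edgeR's test, and 16.2% to 32.1% did over the alternatives. The cause of these differences was not tested.

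Whether the replicate numbers pair the libraries was not settled. Correlations of same-numbered deviations were -0.13, -0.11 and 0.19, and those of differently numbered pairs ran from -0.19 to 0.29. With 3 libraries per group this check could not exclude pairing. With the replicate block, 0 members were lower at an adjusted p under 0.1, as were 0 of all genes, and Slc27a4 had a log2 fold change of -1.02 (adjusted p = 0.165, edgeR). Fabp4, with 142 to 727 counts, had the shallowest counts of the members.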
